A study of Mus musculus with 2 samples.

Results

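The 10 genes described here make or limit bone mineral: Alpl, Phospho1, Slc20a1, Enpp1, Ank, Spp1, Ibsp, Bglap, Dmp1 and Mepe. They were chosen by name, not by their values, from the 24866 genes of a table of RNA counts in single mouse cells, and all 10 had a row in it. The table covers femur cells of 2 littermate C57/B6 mice, taken on postnatal day 6 and both of genotype CTSK-cre+ mTMG. Cre was driven by the cathepsin K (Ctsk) promoter, and the mTmG reporter turns a cell and its descendants GFP positive once Cre has acted, so the sorted GFP-positive cells had present or past promoter activity. There was no untreated or reporter-negative group, and each animal filled its own plate, so a plate effect and an animal effect cannot be told apart. The submitters labelled the cells as mesenchymal. Of 658 wells, 653 had at least 500 detected genes and at most 20% of counts in mitochondrial genes and were kept, 318 from animal 1 and 335 from animal 2.

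Mineral forms in bone when phosphate is freed next to collagen. Tissue-nonspecific alkaline phosphatase, the product of Alpl, splits inorganic pyrophosphate, which blocks crystal growth, and releases phosphate. Enpp1 makes pyrophosphate outside the cell and Ank exports the pyrophosphate or its nucleotide source, whereas Phospho1 frees phosphate inside matrix vesicles and Slc20a1 is a sodium-phosphate carrier. Ibsp, Spp1, Dmp1 and Mepe encode acidic matrix proteins of the SIBLING family, which bind mineral, and Bglap encodes osteocalcin, a Gla protein of mature osteoblasts. Alpl appears early in the osteoblast lineage, Bglap late, and Dmp1 and Mepe are known as genes of osteocytes.

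The sequences just upstream of 4 matrix genes are shown because these genes had the highest fitted fold changes of the 8 members tested in the bone-forming wells described further on. They are RefSeq sequences on GRCm38.p6, written 5′ to 3′, and each ends before the first annotated base of the gene (134 bases are shown for Ibsp). Capitals mark ACCACA or its reverse complement TGTGGT, the core recognised by Runx factors.
Spp1, chr5:104434861-104435110, strand +: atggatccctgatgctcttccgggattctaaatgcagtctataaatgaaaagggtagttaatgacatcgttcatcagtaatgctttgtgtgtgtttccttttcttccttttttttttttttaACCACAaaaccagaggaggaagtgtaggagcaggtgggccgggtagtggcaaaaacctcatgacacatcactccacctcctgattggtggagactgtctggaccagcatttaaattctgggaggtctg
Ibsp, chr5:104299037-104299170, strand +: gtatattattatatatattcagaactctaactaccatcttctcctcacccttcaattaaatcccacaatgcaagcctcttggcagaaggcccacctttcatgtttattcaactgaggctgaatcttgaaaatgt
Bglap, chr3:88384467-88384716, strand -: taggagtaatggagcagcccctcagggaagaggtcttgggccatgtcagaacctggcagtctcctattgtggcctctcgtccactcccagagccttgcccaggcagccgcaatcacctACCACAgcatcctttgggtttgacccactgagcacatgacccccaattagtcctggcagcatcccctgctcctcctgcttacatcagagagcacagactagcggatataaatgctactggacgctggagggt
Dmp1, chr5:104202367-104202612, strand +: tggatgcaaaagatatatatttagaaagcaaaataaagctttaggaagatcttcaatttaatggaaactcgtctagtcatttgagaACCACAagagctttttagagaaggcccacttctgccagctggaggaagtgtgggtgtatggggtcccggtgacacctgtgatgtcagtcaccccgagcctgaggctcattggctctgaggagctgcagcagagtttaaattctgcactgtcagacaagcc
All 10 members matched a RefSeq promoter. ACCACA was searched on both strands in the 250 bases before the start, and 6 members held it: Spp1, Enpp1, Dmp1, Mepe, Bglap and Slc20a1. The motif was chosen with these sequences known, and 14.0% of 32851 windows of the same length held it. In Spp1 the match lay 128 bases before the start, in Bglap 132 bases and in Dmp1 164 bases. The letters were not found in the windows of Ibsp, Alpl, Phospho1 and Ank. A match describes letters only.

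Dmp1, Ibsp, Mepe and Spp1 lie close together on the plus strand of chromosome 5. On GRCm38, the build called mm10 in the submitters' processing notes, GENCODE vM21 places Dmp1 (ENSMUSG00000029307.7) at chr5:104202613-104214102, Ibsp (ENSMUSG00000029306.8) at chr5:104299171-104311469, Mepe (ENSMUSG00000053863.3) at chr5:104325329-104338611 and Spp1 (ENSMUSG00000029304.14) at chr5:104435118-104441050. Together they span 238 kb. Bglap (ENSMUSG00000074483.2) is on the minus strand at chr3:88383501-88384464, 4.80 kb from its copy Bglap2. Their longest coding transcripts were identical at 434 of 440 aligned bases, with a shared run of 241 bases, so the share of reads assigned to Bglap rather than Bglap2 is uncertain. Alpl (ENSMUSG00000028766.10) is on the minus strand at chr4:137741733-137796384. The counts are per gene and do not separate exons or starts.

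Kept wells held between 9767 and 675621 counts, with a median of 101207 in animal 1 and 119126 in animal 2. All 95 well barcodes occurred in both animals, since plates reuse them, and a well is named by plate, quadrant and barcode. Wells were sorted into groups by 8 lists of marker genes, none of which holds a member, and each group is a range of a score, called by the list it scored highest on. The bone-forming-like wells (Sp7, Runx2, Dlx5, Ifitm5 and others) numbered 15 in animal 1 and 8 in animal 2, and 6 of these 23 lay near the limits of the score. Periosteal progenitor-like wells (Postn, Aspn, Ptn and others) numbered 28 and 13, with 8 near the limits, and cartilage-like wells 73 and 75, with 17 near the limits. In bone-forming-like wells the median summed level was 2294 CPM (counts scaled to the well's total) for their own list, 1085 CPM for the progenitor list and 500 CPM for the cartilage list. The progenitor list was also high in fibroblast-like wells, at a median of 6527 CPM against 11047 CPM in progenitor-like wells, and none of its markers was among the 10 genes with the highest fitted fold change of progenitor-like wells. Marrow stromal-like wells had a median of 2881 CPM for the fibroblast list and 941 CPM for their own. A further 212 wells were assigned to no list. Markers of blood and vessel cells were rare: at most 2 kept wells held 2 or more markers of neutrophils or of erythroid cells, 1 held 2 of osteoclasts, and 0 did so for macrophages and endothelial cells.

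Across all kept wells, Spp1 was the most widely detected member and Mepe the least. A gene was called detected in a well at 5 or more counts. Spp1, which encodes osteopontin, was detected in 104 of 318 wells of animal 1 and 79 of 335 wells of animal 2. Enpp1 was detected in 68 and 79 wells, Ank in 41 and 58, Alpl in 40 and 34, and Slc20a1 in 33 and 35. The genes of the later matrix were seen in fewer wells: Ibsp, encoding bone sialoprotein, in 21 and 21 wells, Bglap in 18 and 19, and Dmp1 in 5 and 2. Phospho1 was detected in 2 wells of animal 1 and 1 of animal 2, and Mepe in 1 well of animal 1, which held 57 counts, and in 0 of 335 of animal 2, which allows a share of up to 0.896%. Such limits, and the exact binomial intervals given in brackets below, are at 95% where they are intervals and cover counting error only. Slc20a1, Enpp1 and Ank were spread over the groups, with 4.30%, 15.1% and 17.3% of their counts in bone-forming-like wells. Those wells held 61.1% of Ibsp counts, 53.4% of Bglap counts and 92.0% of Dmp1 counts.

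**Figure D1:**
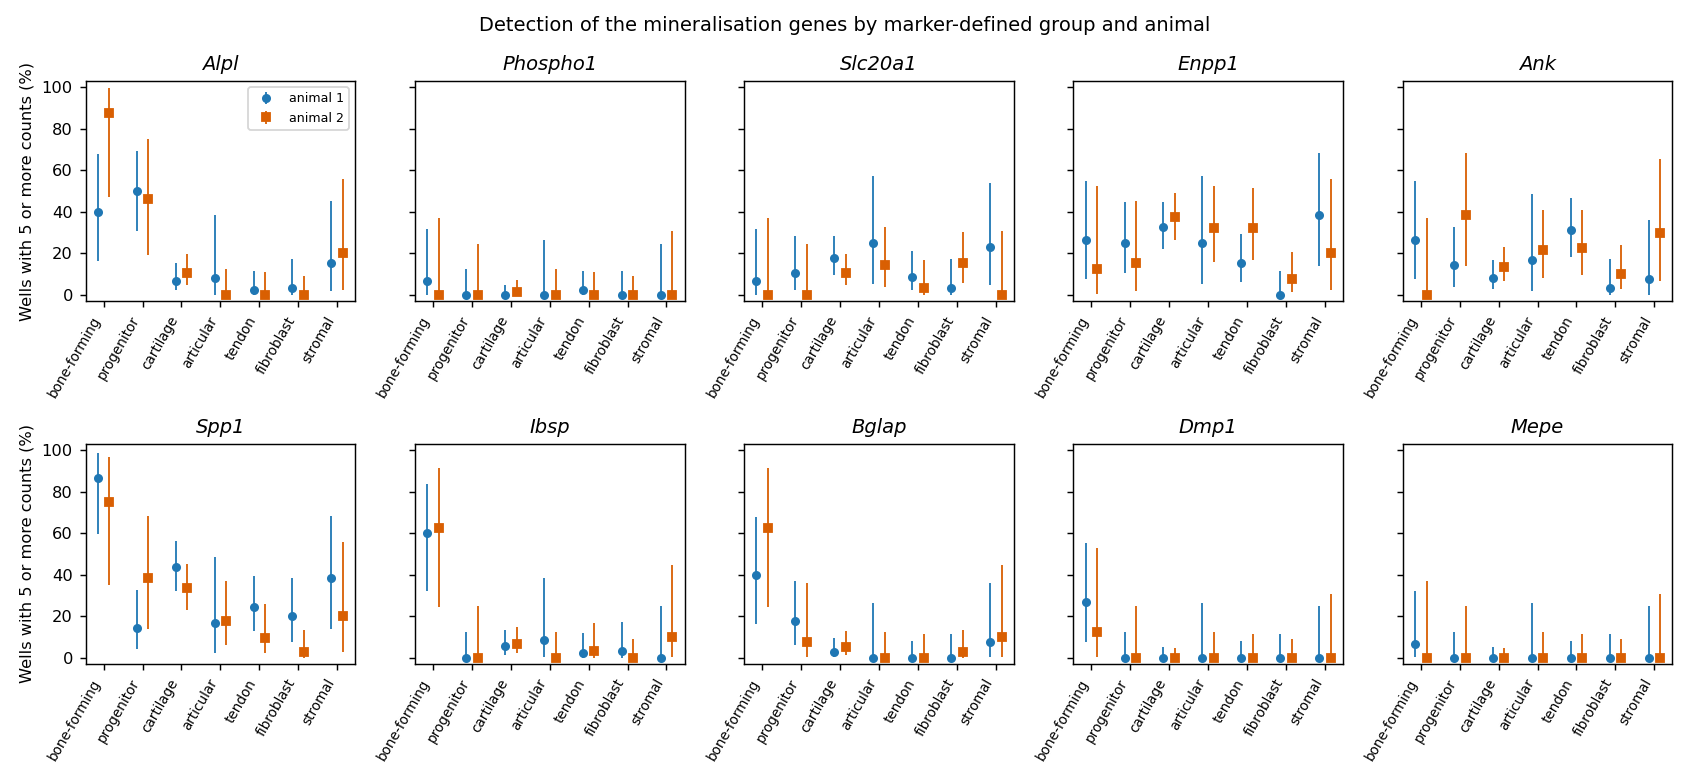
Each panel is 1 gene, the x axis gives 7 groups of wells and the y axis the percent of wells with 5 or more counts; circles are animal 1, squares animal 2, and bars are exact 95% binomial intervals. Ibsp is seen in 9 of 15 and 5 of 8 bone-forming-like wells and in 0 progenitor-like wells, whereas Alpl is seen in 14 of 28 and 6 of 13 of the latter.

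Bone-forming-like wells were first compared with the other groups, which asks which mineralisation genes mark the wells with osteoblast transcription factors. Spp1, Bglap and Dmp1 were higher there, each without overlap between the animals' values and those of the 6 other groups. Ibsp did not overlap either, but its adjusted p fell just above the threshold. Both bone-forming-like libraries lay above each of the 12 others in CPM for these 4 of 8 members, and for 357 of all 12875 genes tested (2.77%). Alpl was about as high in the progenitor-like wells and did not pass. The phosphate carrier Slc20a1 and the pyrophosphate genes Enpp1 and Ank gave no call. The test was edgeR's quasi-likelihood test on counts summed per animal and group, 14 libraries with animal as a block and 6 residual degrees of freedom, against the mean of the other groups, with p-values adjusted by Benjamini-Hochberg and called under 0.05. The block takes out a shift common to all groups of an animal. With 2 animals as replicates, p-values rest on how far group differences varied between these animals, over all groups together. Mepe and Phospho1 did not pass the filter on low counts, so 8 members were tested, and 3 of these 8 were called, all higher. Of all 12875 genes tested, 0.249% were called (0.171% higher), 32 in all. The median log2 fold change was 4.38 over the 8 tested members and -0.15 over all genes tested. That median covers only the members that passed the filter, and a gene can pass it through a single high group.

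Spp1 stood at 8033 CPM in animal 1 and 5034 CPM in animal 2 in the bone-forming-like libraries (6534 ± 2121, SD, n = 2). In the 12 libraries of the other groups it ranged from 8.64 CPM, in fibroblast-like wells of animal 2, to 1070 CPM, in marrow stromal-like wells of animal 1. The groups did not overlap. The fitted difference was 4.83 ± 0.42 (SE of the fit) on the log2 scale, with an adjusted p of 0.00248 by edgeR's quasi-likelihood test. Spp1 was detected in 13 of 15 wells of animal 1 and 6 of 8 of animal 2, and in those wells it ranged from 33 to 6047 counts and from 189 to 1942 counts. Outside the tested groups it was also high in unassigned wells, at 658 and 1216 CPM, where 1 well of animal 2 alone held 4196 counts.

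Bglap was at 1473 CPM in animal 1 and 294 CPM in animal 2 (884 ± 834, SD, n = 2), against 0 to 56.9 CPM in the 12 other libraries. Both animals lay above every other group, although they differed widely from each other. The fitted log2 difference was 7.24 ± 0.65, adjusted p = 0.00248 in edgeR. In animal 1 a single well held 2487 of the counts, and without it the difference was 6.46 ± 0.66 with an edgeR adjusted p of 0.00481. Its copy Bglap2 was likewise higher in animal 1, with 892 against 169 CPM, and did not pass at a log2 difference of 5.50 ± 1.20 (edgeR adjusted p = 0.131).

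Dmp1, an acidic phosphoprotein of osteocytes, was at 537 CPM in animal 1 and 43.1 CPM in animal 2. The 6 other tested groups held 2 Dmp1 counts in 201 wells of animal 1 and 0 in 196 wells of animal 2. Wells assigned to no group, which are not in that comparison, held 22 counts in animal 1 and 107 counts, in 1 well, in animal 2, where the bone-forming-like wells held 66. In animal 1 the ratio of the pooled levels was 6274, with a counting interval of 1734 to 51857. In animal 2, against the limit of 3 counts over the other groups together, the level was at least 371-fold higher. A single well held 64 of the 66 counts there. The interval and the limit treat counts as independent, and they do not cover the spread between wells or animals. The edgeR call (adjusted p = 0.0108) rested on few wells: 4 of 15 and 1 of 8 wells held Dmp1, and 1 well of animal 1 had 1025 of the 1644 counts of all kept wells. Without that well the edgeR adjusted p was 0.0551, and in DESeq2 with all wells it was 0.0820. Over the 10 alternatives it ranged from 3.80e-06 to 0.0820. The fitted log2 value is no bound and is not given. All 7 wells with Dmp1 also held Spp1, 5 held Ibsp, 4 held Bglap and 2 held Alpl. Mepe, the other osteocyte gene among the members, was seen in 1 of these 7 wells, with 20 counts of Dmp1 and 1755 of Spp1.

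Ibsp was at 2463 CPM in animal 1 and 2436 CPM in animal 2 (2449 ± 18.7, SD, n = 2). The other tested libraries ranged from 0.328 CPM, in articular-like wells of animal 2, to 228 CPM, in cartilage-like wells of animal 1. There was no overlap, and the 2 animals lay close together. The fitted log2 difference was 6.85 ± 1.13, with an edgeR adjusted p of 0.0524, which misses the threshold. The adjusted p was 0.0464 in edgeR with the size factors of DESeq2, 0.0434 without the filter on low counts and 0.0408 without the animal block. It was 0.0478 without the well richest in Spp1 and 0.0632 without the well richest in Ibsp, both of animal 1. It was 0.000576 in DESeq2 and 9.63e-08 in edgeR when each well was thinned to 20000 counts, and over the 10 alternatives that gave a test it ran up to 0.0767, while the log2 difference stayed between 6.20 and 7.11. Ibsp was detected in 9 of 15 wells [32.3% to 83.7%] and 5 of 8 wells [24.5% to 91.5%], and in 1 of 69 fibroblast-like wells [0.0367% to 7.81%], whose median depth was 119981 counts against 167607 counts in bone-forming-like wells. After thinning to 20000 counts, with detection at 1 or more, 16 of 22 bone-forming-like wells and 18 of 147 cartilage-like wells held Ibsp, 1 well of each being too shallow.

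Low counts of Ibsp were widespread, and they moved with the plate quadrant. Besides the 42 wells with 5 or more counts, 97 wells held 1 to 4. Their share ranged from 1.22% to 29.3% over the 8 quadrants of the 2 plates. The lowest share belonged to the quadrant of animal 2 whose highest well held 49 Ibsp counts, whereas the highest wells of the other 7 quadrants held 678 to 1921. Spp1 had 1 to 4 counts in 20.7% to 52.4% of the wells of a quadrant, and Alpl in 2.30% to 8.14%. The part of reads carried between wells in these low counts was not tested, and detection is therefore read at 5 or more counts.

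Alpl was at 325 and 330 CPM in bone-forming-like wells, detected in 6 of 15 and 7 of 8 of them. The fitted log2 difference was 3.94 ± 1.00 with an edgeR adjusted p of 0.196, and the progenitor-like libraries, at 453 and 264 CPM, and 1 marrow stromal-like library, at 304 CPM, lay in or near the same range. In DESeq2 the adjusted p was 0.00248 and in edgeR after thinning 0.00963, and it ran up to 0.364 in the other alternatives. Enpp1 was at 365 CPM in animal 1 and 3.26 CPM in animal 2, and Ank at 240 and 1.31 CPM, so that for both genes the animals bracketed most other libraries. A single well of animal 1 held 902 counts of Enpp1, 566 of Ank, 109 of Slc20a1 and 6047 of Spp1. Without that well the log2 difference of Enpp1 turned from 1.24 ± 1.49 to -2.01 ± 1.46 and that of Ank from 1.82 ± 1.29 to -1.02 ± 1.22, and in edgeR no adjusted p of either was under 0.05. Slc20a1 was at 40.4 and 2.61 CPM, with a log2 difference of -1.09 ± 1.67 (edgeR adjusted p = 1). Phospho1 reached 20 counts in 1 bone-forming-like well of animal 1 and 0 counts in animal 2.

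Within the bone-forming-like wells the members did not come as one block. Of the 23 wells, 13 held both Ibsp and Spp1, 6 held Spp1 without Ibsp, 1 held Ibsp without Spp1 and 3 held neither. The 3 wells with neither held 6, 330 and 1391 counts of Col2a1, a gene of the cartilage list. Wells of this group with 1225 and 589 counts of Col2a1 held 86 and 189 counts of Spp1. The part of such cartilage-like wells in these combinations was not tested. All of Alpl, Ibsp, Spp1 and Bglap were detected together in 5 wells. In animal 1 the 3 wells richest in Alpl, with 294, 269 and 125 counts, held 3, 60 and 63 counts of Spp1. The 3 wells of animal 1 richest in Spp1, with 6047, 4849 and 4427 counts, held 0, 0 and 13 counts of Alpl. This opposition was not seen in animal 2, whose well with the most Alpl, 204 counts, held 1361 counts of Spp1. The 3 Alpl-rich wells of animal 1 were also those with 1240, 1477 and 1890 counts of Ifitm5, an osteoblast gene of the marker list. They were among the deepest wells, with 415666, 312738 and 416555 counts in all, against 182467, 139525 and 160507 in the Spp1-rich wells, and the part of depth was not tested. These wells were picked after their values were seen and carry no test.

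**Figure D2:**
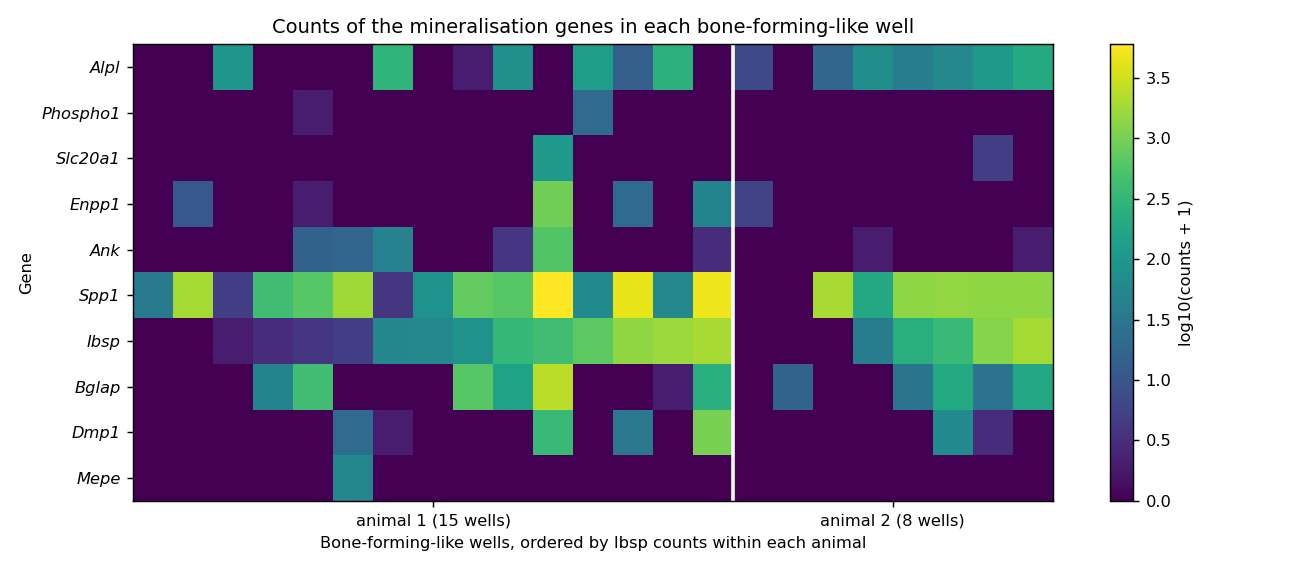
Rows are the 10 genes and columns the 23 bone-forming-like wells, 15 of animal 1 and 8 of animal 2 parted by the white line and ordered by Ibsp; colour gives log10(counts + 1). Spp1 fills most columns, Dmp1 reaches 5 or more counts in 5 of them, and the 3 wells of animal 1 with the most Spp1 counts hold 0, 0 and 13 counts of Alpl.

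The periosteal progenitor-like wells held 39.0% of all Alpl counts, and the bone-forming-like wells 24.1%. Alpl was at 453 CPM in animal 1 and 264 CPM in animal 2 there, in 14 of 28 wells [30.6% to 69.4%] and 6 of 13 wells [19.2% to 74.9%]. In the wells that held it, it ranged from 10 to 410 counts in animal 1 and from 9 to 261 counts in animal 2. Ibsp was detected in 0 of these 41 wells, which allows a share of up to 7.32%, at 1.03 and 3.80 CPM. Thinned to 20000 counts, 1 of the 41 wells held an Ibsp count and 19 held Alpl. Bglap was detected in 5 and 1 wells, at 56.9 and 10.8 CPM, and Dmp1 in 0 wells. Spp1 was detected in 4 of 28 and 5 of 13 wells, at 80.1 and 328 CPM.

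No member passed the test of progenitor-like wells against the other groups. In edgeR 6 of 12875 genes were called (0.0466%, with 864 at an unadjusted p under 0.05), and 0 of the 8 tested members. Alpl had a log2 difference of 4.04 ± 0.98 with an edgeR adjusted p of 0.464. In DESeq2, which called 177 genes, and in edgeR after thinning, which called 60, Alpl alone of the members was called higher, and its adjusted p ranged from 0.00117 to 0.535 over the 10 alternatives. Ibsp had a log2 difference of -4.77 ± 2.17 (edgeR adjusted p = 0.754). Directly compared in the same edgeR fit, bone-forming-like and progenitor-like wells differed in 11 genes (0.0854%, 843 at an unadjusted p under 0.05) and in 0 members. The Alpl difference was -0.09 ± 1.65 on the log2 scale. Spp1 was 4.81 ± 0.83 higher, adjusted p = 0.105, and Ibsp 9.97 ± 2.74, adjusted p = 0.452, in edgeR. DESeq2 called 351 genes and 3 members, and the thinned edgeR fit 69 genes and 3 members, Spp1, Ibsp and Bglap in both, all higher in bone-forming-like wells. That comparison was added after the data were seen.

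Among cartilage-like wells, Spp1 was common and the other matrix genes were seen in few wells. Spp1 was detected in 32 of 73 wells of animal 1 and 25 of 75 of animal 2, at 540 and 468 CPM. Ibsp was detected in 4 of 73 and 5 of 75 wells, and those wells held 172 to 1016 and 26 to 733 counts, a range that overlapped with that of the bone-forming-like wells. Alpl was detected in 5 and 8 wells, at 10.9 and 39.3 CPM, Bglap in 2 and 4 wells, and Dmp1 and Mepe in 0. Enpp1 was detected in 24 and 28 wells, at 91.7 and 95.3 CPM, and these wells held 29.1% of its counts. Against the other groups edgeR called 95 genes (0.738%, 1565 at an unadjusted p under 0.05) and 0 of 8 members, DESeq2 called 0 members, and edgeR after thinning 2, Ibsp and Bglap, both higher. The median log2 difference was 0.55 over all genes tested and 0.33 with the size factors. Ibsp differed by 2.48 ± 1.19 (adjusted p = 0.452), Spp1 by 0.83 ± 0.50 (adjusted p = 0.577) and Bglap by 2.44 ± 0.71 (adjusted p = 0.219) in edgeR on the log2 scale. Of the hypertrophic cartilage markers Col10a1, Ihh, Pth1r and Panx3, 2 or more were seen in 5 cartilage-like wells and in 6 bone-forming-like wells. Col10a1 was detected in 1 cartilage-like and 0 bone-forming-like wells, and Ihh in 2 and 1. Pth1r was detected in 24 and 11 of them and Panx3 in 6 and 10. Panx3 was called higher in both groups in edgeR, with an adjusted p of 0.00688 in cartilage-like and 0.00139 in bone-forming-like wells. It therefore does not tell these 2 groups apart here. The summed level of the 4 markers ran from 0 to 4497 CPM in cartilage-like wells and from 0 to 1781 CPM in bone-forming-like wells. Their part in the values of the members was not tested.

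In fibroblast-like wells Spp1 was lower. It stood at 36.4 CPM in animal 1 and 8.64 CPM in animal 2, below each of the other tested libraries, of which the lowest was at 80.1 CPM. It was 1 of 8 members for which both fibroblast-like libraries lay lowest, as they did for 0.598% of all genes tested. The log2 difference was -4.72 ± 0.78 with an edgeR adjusted p of 0.0371, and it was the only member of 8 called where 0.497% of genes were called (0.132% lower). Alpl was at 5.48 and 0.192 CPM there, with a log2 difference of -4.51 ± 1.78 and an edgeR adjusted p of 0.431. For articular and synovial-like, tendon-like and marrow stromal-like wells edgeR called 0.0854%, 0.194% and 0.466% of genes and 0 members each, with 1094, 968 and 1551 genes at an unadjusted p under 0.05. DESeq2 called Alpl and Bglap lower in the first, Bglap lower in the next and Alpl higher in the last. Alpl was at 37.8 and 304 CPM in marrow stromal-like wells, detected in 2 of 13 and 2 of 10. Mural-like wells, 16 and 5, were too few in animal 2 to be tested.

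Other genes of the mineral pathway were read from 6 lists chosen by function. In bone-forming-like wells, 1 of 4 tested genes of phosphate release and transport was called, Smpd3, the neutral sphingomyelinase of matrix vesicle release, and it was higher. Smpd3 was at 406 and 323 CPM, detected in 7 of 15 and 6 of 8 wells, with a log2 difference of 6.47 ± 0.45 and an edgeR adjusted p of 0.00134. That difference is against a mean that takes in groups with almost no Smpd3. It does not measure the smaller gap to cartilage-like wells, whose levels are given below. Of the osteocyte and phosphate hormone genes, 1 of 4 tested was called higher, Phex, an endopeptidase that limits FGF23, at 193 and 343 CPM with a log2 difference of 9.10 ± 0.94 and an edgeR adjusted p of 0.0141. The bone matrix list had 0 of 8 tested genes called, with Sgms2, named after its value was seen, nearest at 4.06 ± 0.67 (edgeR adjusted p = 0.0513) and Col1a1 at 1.15 ± 0.25 (adjusted p = 0.126). The other highest of that list were the collagen gene Col1a2 at 16196 and 11861 CPM, Sparc, encoding osteonectin, at 11684 and 10440 CPM, and Cthrc1 at 1676 and 1237 CPM, with log2 differences of 0.75, 0.34 and 0.68. The annexins of matrix vesicles had 0 of 4 called, with log2 differences of -0.03 for Anxa1, -0.44 for Anxa2, -0.08 for Anxa5 and -0.01 for Anxa6. The enzymes that carboxylate Gla proteins had 0 of 3 called, with 0.26 for Vkorc1, 0.87 for Ggcx and -0.24 for Vkorc1l1. Mgp, the Gla protein that inhibits mineral growth, was the only inhibitor tested. It was at 248 CPM in animal 1 and 6109 CPM in animal 2, against 1703 to 16648 CPM in the 12 other libraries, and was not called (log2 difference -0.96 ± 0.79, edgeR adjusted p = 0.854). Median log2 differences were 1.02 over the tested phosphate genes, 2.54 over the osteocyte genes, 1.45 over the bone matrix genes, -0.05 over the annexins and 0.26 over the carboxylation genes.

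Genes of the same lists were also called in other groups. Smpd3 was also higher in cartilage-like wells, at 218 and 127 CPM and a log2 difference of 5.44 ± 0.45 (edgeR adjusted p = 0.000999), and lower in fibroblast-like wells, where it was at 0.289 and 0 CPM (adjusted p = 0.0230). Omd, a small leucine-rich keratan sulfate proteoglycan, was higher in cartilage-like wells, at 2398 and 2550 CPM, by 3.92 ± 0.61 on the log2 scale (edgeR adjusted p = 0.0217). Vkorc1, the vitamin K epoxide reductase that supplies the cofactor of Gla carboxylation, was higher there at 1529 and 1519 CPM, by 1.03 ± 0.17 (adjusted p = 0.0271). Anxa1 was lower there at 99.4 and 101 CPM, with -2.35 ± 0.41 (adjusted p = 0.0378). In tendon-like wells both chains of type I collagen were higher, Col1a1 by 1.82 ± 0.24 (adjusted p = 0.0179) and Col1a2 by 1.64 ± 0.21 (adjusted p = 0.0146). In marrow stromal-like wells 2 bone matrix genes were lower, Cthrc1 with -2.28 ± 0.32 (adjusted p = 0.0266) and Sparc with -1.53 ± 0.22 (adjusted p = 0.0282). Of the 4 annexins, 3 were higher in fibroblast-like wells: Anxa1 by 1.95 ± 0.29, Anxa2 by 1.72 ± 0.27 and Anxa5 by 0.80 ± 0.13, all with an edgeR adjusted p under the threshold. In progenitor-like wells 0 genes of the 6 lists were called. Smpd3 was the 1 gene called higher in bone-forming-like than in progenitor-like wells, with an edgeR adjusted p of 0.0106. The 41 progenitor-like wells held 1 count of it, so the fitted log2 values of both low groups are no bounds and are not given. The differences of 6.47 and 5.44 for Smpd3 in bone-forming-like and cartilage-like wells are against means that take in both low groups.

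The order in which members joined Alpl was then read among the 74 wells with 5 or more Alpl counts, 40 in animal 1 and 34 in animal 2. Spp1 had the highest share in both animals, in 18 of 40 wells (45.0% [29.3% to 61.5%]) and 19 of 34 wells (55.9% [37.9% to 72.8%]). Ibsp followed in 12 wells (30.0%) and 11 wells (32.4%), and Bglap was level with the next member in each animal, in 10 (25.0%) and 9 (26.5%). Enpp1 followed in 10 and 7 wells, Ank in 5 and 9, and Slc20a1 in 3 and 2. Dmp1 was found in 1 well of each animal, Phospho1 in 1 well of animal 1 and Mepe in 0 of 74. The intervals of Spp1 and Ibsp overlapped in each animal, as did those of Ibsp, Bglap, Enpp1 and Ank. The interval of Ibsp lay above those of Dmp1 and Mepe in each animal. The order of Ibsp, Bglap, Enpp1 and Ank is not resolved at this number of wells. All shares come from the same wells, which the intervals leave out of account. Well by well, 11 wells held Spp1 with neither Ibsp nor Bglap, and 5 held Spp1 and Bglap without Ibsp. Ibsp without Spp1 was seen in 2 wells. The first place of Spp1 was not tested. Of the 9 other members 5 were seen in at least 10% of these wells. The order is one of shares of wells and not of time.

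Ibsp and Bglap had shares above those in the 547 wells with 0 Alpl counts in both animals, outside the intervals, and Spp1 did so in animal 2. Ibsp was in 2.70% of 259 Alpl-silent wells of animal 1 and 3.47% of 288 of animal 2. Bglap was in 2.70% and 3.13%, and Spp1 in 30.1%, inside the interval of animal 1, and 19.4%. In the silent wells the shares of Enpp1, 20.5% and 23.3%, of Ank, 12.4% and 16.3%, and of Slc20a1, 10.8% in each animal, were inside the intervals of the Alpl-expressing wells. Alpl-expressing wells were deeper outside cartilage, with a median of 148639 against 92083 counts in animal 1 and 170732 against 101740 in animal 2. Among cartilage-like wells the medians were 180383 against 109630 counts in animal 1 and 121782 against 134211 in animal 2.

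**Figure D3:**
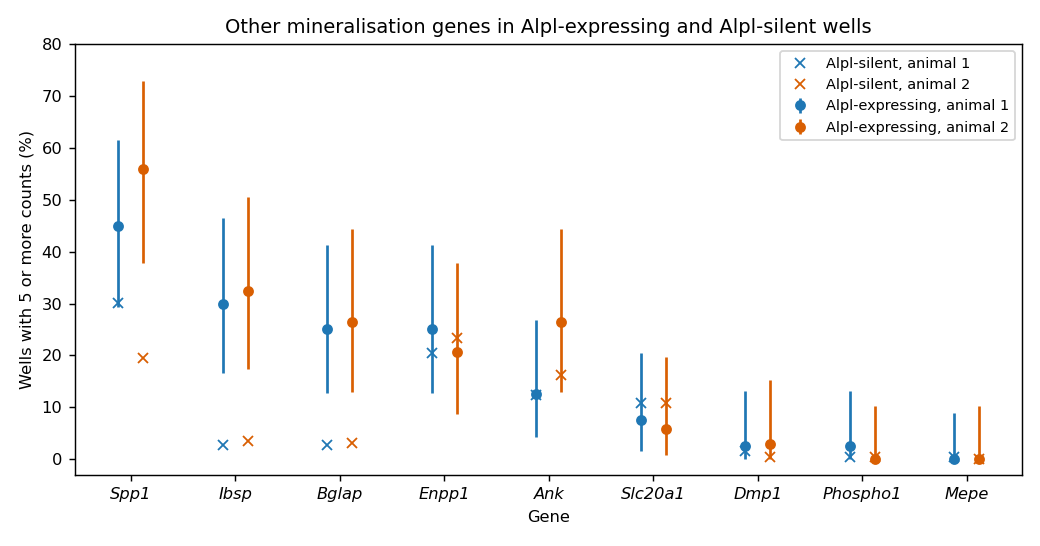
The x axis gives the 9 other genes and the y axis the percent of wells with 5 or more counts; filled circles with exact 95% binomial intervals are Alpl-expressing wells, crosses are wells with 0 Alpl counts, blue is animal 1 and orange animal 2. Ibsp stands at 30.0% and 32.4% against 2.70% and 3.47%, whereas Enpp1 and Slc20a1 have their crosses within the intervals.

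Among the Alpl-expressing wells, Ibsp was either absent or plainly present. In 51 of the 74 wells it had at most 1 count, and in the other 23 it had at least 38, with a median of 325 and a highest value of 1868. Spp1 left no such gap: 37 wells had at most 4 counts and 37 had 6 to 4427. Of 74 wells, 28 held none of Spp1, Ibsp, Bglap and Dmp1, 11 held Spp1 alone of these, 7 held Bglap alone and 2 held Ibsp alone. Of the 23 wells with Ibsp, 21 also held Spp1. Bglap without Spp1 and Ibsp was thus seen in 5 wells of animal 1 and 2 of animal 2, with 5 to 70 counts of Bglap. At the cut of 5 counts, detection of the members did not follow a single nested order. The part of missed detection in single wells was not tested. By Alpl level, Ibsp was in 9 of 40 wells with 5 to 49 Alpl counts and 14 of 34 wells with 50 or more, and Bglap in 6 and 13. For Ibsp the 2 animals went opposite ways, with 7 of 21 against 5 of 19 wells in animal 1 and 2 of 19 against 9 of 15 in animal 2.

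What accompanied Alpl differed in count by group. Among 13 Alpl-expressing bone-forming-like wells, 10 held Ibsp, 10 Spp1, 5 Bglap and 2 Dmp1. Among 20 progenitor-like wells with Alpl, 0 held Ibsp, 3 held Spp1 and 6 Bglap. Among 13 cartilage-like wells with Alpl, 5 held Ibsp, 9 Spp1 and 3 Bglap. The median Alpl count of the wells was 78, 72 and 42 in these 3 groups, so that the progenitor-like wells without Ibsp had nearly as many Alpl counts as the bone-forming-like wells. These counts are not scaled to depth, and the median totals of the same wells were 225781, 160911 and 134372 counts. Wells of 1 group share an animal and a plate, and these counts carry no test. Read from the other side, 23 of 42 Ibsp wells and 19 of 37 Bglap wells held Alpl, but 37 of 183 Spp1 wells and 2 of 7 Dmp1 wells did.

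**Figure D4:**
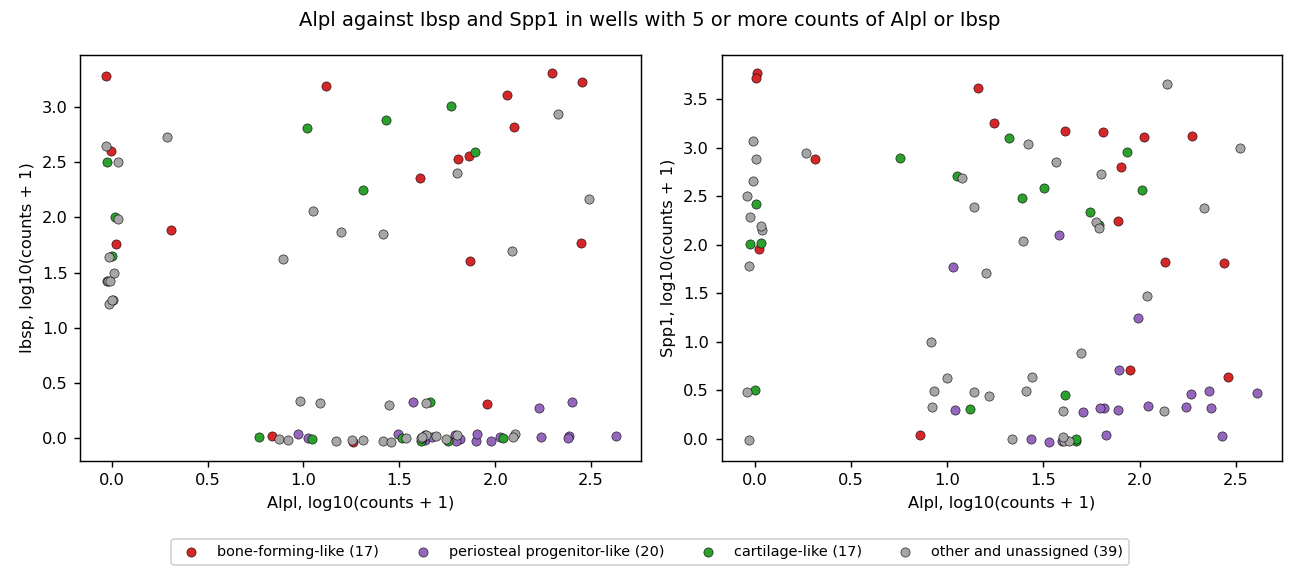
Each point is a well with 5 or more counts of Alpl or Ibsp, with a small random shift so that points at the same value show; x axes give Alpl and y axes Ibsp (left) or Spp1 (right), all as log10(counts + 1), and colours give the group. The 20 progenitor-like wells lie along the bottom of the Ibsp panel, with at most 1 count, while 10 of the 13 bone-forming-like wells with Alpl lie at 38 or more.

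Alpl-expressing wells were also compared with Alpl-silent wells on summed counts, apart for cartilage-like and for all other wells, leaving out wells with 1 to 4 Alpl counts. Alpl was the gate and was not tested, and 7 other members passed the filter. The wells outside cartilage pooled all other groups and the unassigned wells. Bone-forming-like wells, 23 in all, made up 13 of the 61 Alpl-expressing wells there, beside 419 silent wells. The part of this mix of groups in the differences was not tested. Outside cartilage, Ibsp was at 769 and 1146 CPM (scaled by TMM) in Alpl-expressing wells against 153 and 26.3 CPM in silent wells of animals 1 and 2. Spp1 was at 1420 and 3152 CPM against 1188 and 569 CPM, and Bglap at 86.8 and 183 CPM against 179 and 97.6 CPM. The values of Ibsp and of Spp1 did not overlap between the gates, and those of Bglap did. Such a gap was common: 2 of 7 members lay wholly higher in Alpl-expressing wells beside 15.8% of all genes tested, and 2, Ank and Slc20a1, wholly lower beside 27.3%. Ibsp differed by 3.83 ± 0.78 on the log2 scale and Spp1 by 1.39 ± 0.51, both with an edgeR adjusted p of 1. In edgeR 0 of 13490 genes were called (0%, with 572 at an unadjusted p under 0.05), and DESeq2 called 147, among them 1 member, Ibsp, higher. The fit had 8 libraries and 3 residual degrees of freedom.

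Within cartilage-like wells Ibsp and Spp1 stood apart as well, and so did Bglap, again without an edgeR call for a member. Ibsp was at 1574 and 990 CPM in the 13 Alpl-expressing wells against 42.1 and 22.6 CPM, and Spp1 at 2240 and 1865 CPM against 326 and 350 CPM. Bglap was at 156 and 257 CPM against 19.8 and 4.32 CPM. Its level rested on few Alpl-expressing wells, 1 of animal 1 with 181 counts and 2 of animal 2 with 202 and 95. The well of animal 1 had 5 Alpl counts, the lowest number the gate admits, and 389839 counts in all. A silent cartilage-like well of animal 1 held 144 counts of Bglap. The phosphate carrier went the other way, with Slc20a1 at 0 and 0.863 CPM against 69.2 and 46.0 CPM, as did Enpp1 at 30.1 and 40.6 CPM against 99.0 and 115 CPM. In each of these 5 genes the animals' values did not overlap. The 3 of 7 members that lay wholly higher stand beside 6.06% of all genes tested, and the 2 that lay wholly lower beside 39.3%, so that the lower values of Slc20a1 and Enpp1 do not stand out from the background. The log2 differences were 5.34 ± 0.81 for Ibsp (edgeR adjusted p = 0.184), 2.60 ± 0.51 for Spp1 (0.207), 4.22 ± 0.97 for Bglap (0.215) and -1.59 ± 0.52 for Enpp1 (0.261). EdgeR called 1 gene of 13490 (0.00741%), which was no member, with 2018 at an unadjusted p under 0.05, and the median over all genes was -0.99. DESeq2 called 1079 genes, among them Ibsp, Spp1 and Bglap higher and Slc20a1 lower, and the thinned edgeR fit 69 genes with 1 member, Ibsp, higher. The Alpl-expressing cartilage-like wells were 5 in animal 1 and 8 in animal 2. The difference between the cartilage-like and other comparisons was tested as an interaction, and 0 genes were called in edgeR (0%, 1515 at an unadjusted p under 0.05) and 555 in DESeq2, among them Bglap higher and Slc20a1 lower. In edgeR the adjusted p was 0.669 for Ibsp and 0.365 for each of Bglap and Slc20a1.

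The genes whose pattern was nearest to Alpl and to Ibsp over the 14 summed libraries were named by their Pearson correlation of log2(CPM + 1). For Alpl these included Cdk4, a cyclin-dependent kinase (r = 0.90), Tpm1 (0.85), Ptch1, the hedgehog receptor (0.83), and Gpx3 (0.83). For Ibsp they were Unc5c, a netrin receptor (0.94), Plekhm3 (0.86), Kdm4b (0.86), Fam234b (0.86) and Tspan31 (0.83). Libraries of 1 animal share a plate, and these are descriptions only.

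Some wells outside the bone-forming-like group carried the late genes. An unassigned well of animal 2 held 2272 counts of Bglap, 1168 of Spp1, 107 of Dmp1, 90 of Ibsp and 83 of Ifitm5, with 0 counts of Sp7 and Runx2. Another unassigned well of animal 2 held 4196 counts of Spp1, 339 of Bglap, 129 of Alpl and 799 of Mmp13, a collagenase of late cartilage and osteoblasts. Both were chosen after their values were seen.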

How the data were processed

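Whole-number counts per gene and well were used as deposited. The authors made them against mm10 with CASAVA, per the submitters' processing notes. No source used here names the aligner, counter, annotation, strand setting or treatment of duplicates, so a count is not read as 1 molecule. Wells came from sorted single cells by template switching, PCR and Nextera XT, per the labels' protocols. Plates were matched to animals by title.

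Wells were scored by the mean z of log2(CPM + 10) over each marker list and assigned at a score of at least 0.5 and 0.2 above the next. No doublet caller was run. Groups with 8 or more wells in each animal (7 groups) were summed per animal and tested with edgeR 4.0.16 (filterByExpr, TMM, animal as block) under R 4.3.3. The ± beside a log2 difference is its absolute value over the root of the F statistic. CPM by group are scaled to the library total. DESeq2 1.42.0 and limma 3.58.1 served alternatives. Both animals gave every group, which is where the block comes from. Scripts were tested on simulated data.

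All members are reported. Of each pathway list, up to 4 genes are named: those past the threshold, otherwise, in bone-forming-like wells, those with the highest CPM. Some others were named after their values were seen, and 1 gene that the rule names is not reported here. The members and lists were chosen with earlier results of these data known.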

Additional observations from a re-analysis of the deposited data

How the results depend on the processing

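For bone-forming-like wells, the 32 genes called became 532 in DESeq2, 147 with mean CPM over wells in limma, 116 after thinning to 20000 counts and 49 without the replicate block, and the 3 members became 5 after thinning. For progenitor-like wells, the 6 genes became 177 in DESeq2, 1 with DESeq2's size factors, 1 without the replicate block, 60 after thinning and 10 without wells above 300000 counts. There 1 member was called in DESeq2 and 1 after thinning. For cartilage-like wells, the 95 genes became 280 in DESeq2, 54 with the size factors and 220 after thinning, the last with 2 members, and the split of higher and lower calls moved from 78 and 17 to 33 and 21 with the size factors. For fibroblast-like wells, the 64 genes became 294, 131 and 231 in DESeq2, limma and after thinning, and 2 members were lower in DESeq2. Bone-forming-like against progenitor-like wells gave 351, 56 and 69 genes in the same 3, with 3, 2 and 3 members higher, in place of 11 and 0.

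For the Alpl gate, the 0 genes outside cartilage became 147 in DESeq2, with 1 member higher. Within cartilage the 1 gene became 1079 in DESeq2 and 69 after thinning, with 3 and 1 members higher, and 0 with Alpl at 20 or more counts, with the size factors, in limma, without the replicate block or without wells above 300000 counts. The count of 5 members in at least 10% of Alpl-expressing wells was 6 at 1 or more counts and 5 in the other 6 settings. The causes were not tested.

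Of 300 alternative values for single members, 258 kept their direction and, where a test was run, their side of the threshold. Values with 1 animal left out have no test and were counted by direction alone. In bone-forming-like wells Enpp1 turned to -0.0090 in limma and to -2.01 without its richest well, which is also the well richest in Spp1, Ank to -0.91 and -1.02, and Slc20a1 to 0.043 with a looser score. Alpl in cartilage-like wells turned to -0.030 with the size factors, -0.27 in limma and -0.22 without the block. With 1 animal left out, a value with no test, log2 differences ran from -4.01 to 3.06 for Enpp1, from -5.17 to 3.18 for Ank and from -1.47 to 0.24 for Slc20a1 in bone-forming-like wells, from -2.47 to 0.18 for Spp1 in progenitor-like wells and from -1.67 to 1.60 for Alpl in cartilage-like wells. Counts of called genes cannot be had from 1 animal.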
